A study of Rattus norvegicus with 16 samples.

Results

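The genes described here are 9 nuclear receptors, coregulators and a kinase that act with the peroxisome proliferator-activated receptors (PPARs): the receptors Ppara and Ppard, their partners Rxra and Rxrb, the coactivators Ncoa1 and Ncoa2, the corepressors Ncor1 and Nrip1, and the kinase Cdk5. They are chosen by name, and all 9 are among the 13222 genes of the expression table. Pparg, the receptor that both study drugs target, is not analysed here. RNA was sequenced from sieved glomeruli of 16 male Wistar rats of about 175 g, taken on day 11. The control group is labelled healthy, and the other groups received puromycin aminonucleoside (PAN), a podocyte toxin, by intravenous injection. Of these, 2 groups were gavaged daily with pioglitazone or with GQ-16, and the third is labelled as the injury model; the protocol mentions a sham vehicle and the labels do not say which groups received it. Each group holds 4 libraries, taken here as 4 rats. The labels give no dose and do not say that each library came from a separate animal, so the p-values measure the spread between these libraries.

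PPARs are transcription factors that bind fatty acids and related lipids. They sit on DNA as heterodimers with a retinoid X receptor such as Rxra or Rxrb, hold corepressors such as Ncor1 when no activating ligand is bound, and exchange them for coactivators of the Ncoa family when a ligand is bound. Cdk5 is a kinase of post-mitotic cells, podocytes and neurons among them, and phosphorylates PPARγ. Pioglitazone is a thiazolidinedione that activates PPARγ, and GQ-16 is known as a partial agonist of the same receptor.

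The promoters of 7 of the 9 genes are in the RefSeq promoter table (build GRCr8), and 3 are printed here from it: Rxra and Nrip1, whose levels moved together across rats, and Cdk5, which differed between control and PAN rats as deposited. Each sequence is the part of the 250 bases before the annotated start that lies outside any annotated gene, read 5′ to 3′ on the gene's strand. Capitals mark the GC box GGGCGG on either strand, a motif bound by Sp family factors.
Rxra, chr3:31387642-31387891, plus strand: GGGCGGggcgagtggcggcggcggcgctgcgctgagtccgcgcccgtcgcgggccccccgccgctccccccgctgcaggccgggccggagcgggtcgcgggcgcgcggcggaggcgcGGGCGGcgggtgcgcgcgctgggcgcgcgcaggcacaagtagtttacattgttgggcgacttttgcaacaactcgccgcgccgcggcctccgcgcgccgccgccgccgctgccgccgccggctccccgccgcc
Nrip1, chr11:28466484-28466662, minus strand: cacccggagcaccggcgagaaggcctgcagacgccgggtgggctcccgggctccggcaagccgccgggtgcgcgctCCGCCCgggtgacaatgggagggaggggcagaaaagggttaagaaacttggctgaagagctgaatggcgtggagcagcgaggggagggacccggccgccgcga
Cdk5, chr4:11646874-11647097, plus strand: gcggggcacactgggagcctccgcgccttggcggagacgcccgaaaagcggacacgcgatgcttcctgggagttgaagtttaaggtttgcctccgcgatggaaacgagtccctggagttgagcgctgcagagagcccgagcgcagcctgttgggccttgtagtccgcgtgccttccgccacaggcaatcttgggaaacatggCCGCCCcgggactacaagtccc
All 7 promoters held a GC box within 250 bases before the start, against 30.5% of 33469 RefSeq promoters searched in the same way. None of the 7 held CCAAT, which 34% of all promoters did. The receptor motif AGGTCA was found in 0 of 7 and in 14.1% of all, and its direct repeat AGGTCANAGGTCA, the arrangement that PPAR and RXR dimers bind, in 0 of 7 and in 0.0508% of all. Both strands were searched, and matches of the direct repeat also count as matches of AGGTCA. The windows of the 7 genes had a GC content of 63.6% to 82.8%, above the median of 51.2% over all promoters.

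Libraries held between 13351137 and 21977663 reads in the listed genes, and a gene described here had between 61 reads (Ppara, lowest library) and 4970 reads (Ncor1, highest library). Mitochondrial genes took 13.9% to 39.6% of the reads in control libraries and 5.98% to 10.8% in PAN libraries. They took 8.77% to 19.4% in pioglitazone libraries and 6.76% to 31.4% in GQ-16 libraries, the highest of these in GQ-16 rat 2. Counts scaled to the library total (CPM) of other genes thus depend on the scaling. The median log2 change of all 13222 genes from control to PAN was 0.28 as deposited and -0.003 after median-ratio scaling, which divides each library by the median ratio of its genes to their mean level. Log2 changes of the 9 genes against control are therefore given under both scalings. All 10 podocyte markers and 9 of 10 glomerular endothelial markers were listed, and so were all 12 proximal tubule markers, whose summed level ran from 3113 to 12754 CPM over the 16 libraries. No listed marker was at 0 reads. Library numbers of 25 or higher in the sample titles belong to 3 of 4 PAN libraries, 1 pioglitazone library, 1 GQ-16 library and 0 control libraries.

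PAN injury was compared with control to ask which of the 9 genes differ in the injured glomerulus. Ppard was higher in PAN rats under both scalings, by 1.66-fold as deposited and 1.35-fold after median-ratio scaling. Cdk5 was 1.45-fold higher as deposited, and Ncoa1 was lower, at 0.825 of its control level, after median-ratio scaling only. The other 6 genes, Ppara, Rxra, Rxrb, Ncoa2, Ncor1 and Nrip1, passed the test under neither scaling. The test was limma's moderated test on log2(CPM + 1) with Benjamini-Hochberg adjustment over all 13222 genes, and a gene is called at an adjusted p under 0.05. With it 2 of 9 genes were called as deposited (Ppard and Cdk5), beside 22.3% of all genes, and 2 of 9 after median-ratio scaling (Ppard and Ncoa1), beside 8.63%. The PAN and control rats did not overlap for 2 of the 9 genes as deposited, beside 23.3% of all genes, and for 4 of 9 after median-ratio scaling, beside 15.8%. The count as deposited is close to the share of all genes, and nothing particular to these genes is read from it. The median log2 change of the 9 genes was 0.02 as deposited and -0.28 after median-ratio scaling, beside 0.28 and -0.003 for all genes.

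**Figure D1:**
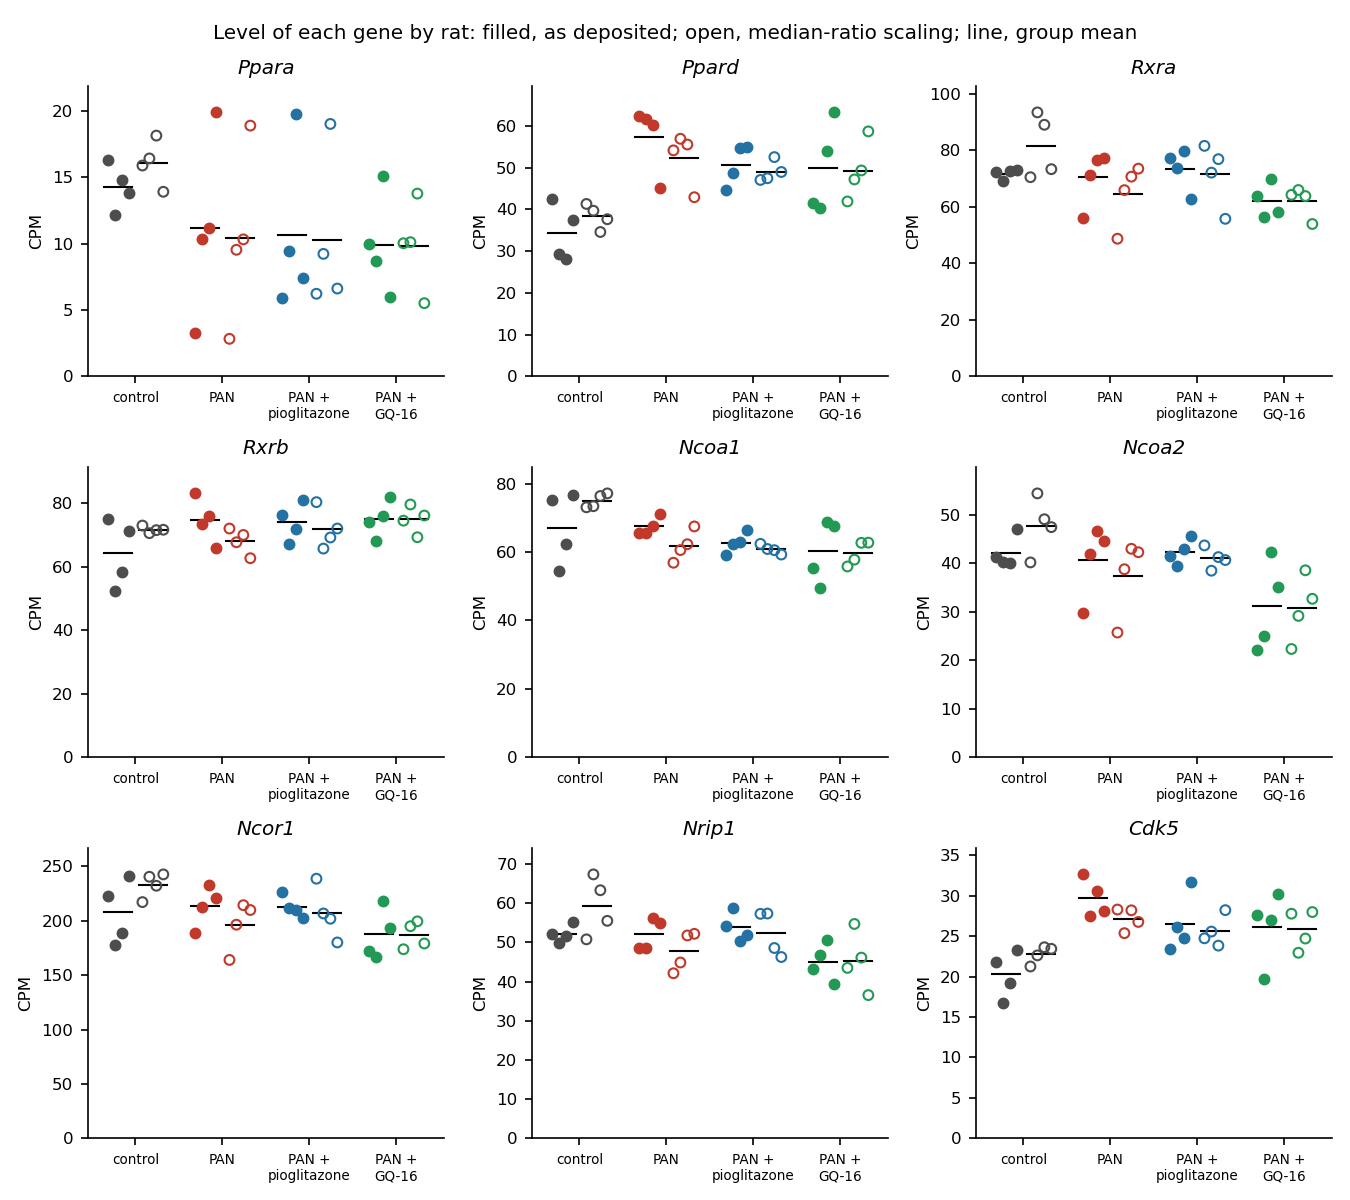
Level of each of the 9 genes (vertical axis, CPM, from 0) in the 4 rats of each group, with filled points as deposited, open points after median-ratio scaling and a line at the group mean. The open points of Ppard lie higher in all 12 injected rats than in the 4 control rats, those of Ncoa1 lie lower, and Ppara varies most among the rats of a group relative to its level.

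Among the receptors, Ppard (ENSRNOG00000000503) is the widely expressed PPAR that drives fatty acid oxidation. As deposited it stood at 42.5, 29.4, 28.2 and 37.4 CPM in the control rats and at 62.5, 61.6, 60.3 and 45.2 CPM in the PAN rats. All 4 PAN rats were above all 4 control rats, with the fourth PAN rat well below the other PAN rats. The log2 change was 0.73 (95% interval 0.38 to 1.09, SE 0.167, limma adjusted p = 0.00882). After median-ratio scaling the control rats lay between 34.6 and 41.3 CPM and the PAN rats between 42.9 and 56.9 CPM, with a log2 change of 0.44 (limma adjusted p = 0.0197, SE 0.105). In glomerular tissue a level per library cannot tell a change in the number of cells of a type from a change in RNA per cell. Marker lists of other cell types were examined in the same contrast, beside the 22.3% of all genes called as deposited and 8.63% after median-ratio scaling. Of 10 mesangium and smooth muscle markers, all listed, 9 were called higher in PAN as deposited and 8 after median-ratio scaling. Their sum as deposited was 324 to 858 CPM in control and 1706 to 2838 CPM in PAN rats. Of 10 podocyte markers 2 were called higher as deposited, a share near that of all genes, and 1 after median-ratio scaling. As deposited their median log2 change was 1.39 and their sums overlapped, at 2798 to 9856 CPM in control and 7711 to 11295 CPM in PAN rats. Of 10 distal nephron and collecting duct markers 5 were called lower as deposited and 4 after median-ratio scaling. Their sum as deposited was 982 to 1728 CPM in control and 526 to 1104 CPM in PAN rats. The leukocyte list had 4 of 8 markers called higher, and 0 after median-ratio scaling, with a sum of 472 to 816 CPM in control and 745 to 1686 CPM in PAN rats. With the podocyte score as a covariate the log2 change of Ppard as deposited was 0.43 and still called (limma adjusted p = 0.0261). The part of the mesangium, distal nephron and leukocyte markers in the differences of Ppard, Ncoa1 and Cdk5 was not tested. The 1 PAN library with a low library number was the fourth rat, and with library number as a covariate the log2 change of Ppard was 0.46 with a limma adjusted p of 0.194, so it was no longer called. Leaving out 1 rat at a time, the call held in 8 of 8 fits as deposited and in 4 of 8 after median-ratio scaling, where it was lost without control rat 3 (adjusted p = 0.0771) and without PAN rats 1, 2 or 3 (adjusted p = 0.0618, 0.0684 and 0.052).

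In pioglitazone-treated rats Ppard stood at 44.6, 48.6, 54.6 and 55.0 CPM, and in GQ-16-treated rats at 41.6, 40.4, 54.0 and 63.3 CPM. Both treated groups had means between those of the control and PAN rats and overlapped the PAN rats. Against control the log2 difference was 0.56 with pioglitazone (limma adjusted p = 0.061) and 0.52 with GQ-16 (limma adjusted p = 0.113), and neither passed the test. After median-ratio scaling the differences were 0.35 in both, with limma adjusted p of 0.0863 and 0.0855. All these comparisons use the same 4 control rats.

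Ppara (ENSRNOG00000021463), the PPAR of fatty acid oxidation in proximal tubule and liver, was the most variable of the 9 genes on the log2 scale. It stood at 16.3, 12.1, 14.8 and 13.8 CPM in control rats and at 3.26, 10.3, 11.2 and 19.9 CPM in PAN rats. Pioglitazone-treated rats had 5.89, 9.44, 19.8 and 7.42 CPM and GQ-16-treated rats 9.95, 8.65, 15.1 and 5.94 CPM. As deposited PAN rats held both the lowest and the highest value of the 16. After median-ratio scaling the highest was pioglitazone rat 3, at 19.0 CPM, with PAN rat 4 at 18.9 CPM. The log2 change in PAN was -0.53 (95% interval -1.39 to 0.33, SE 0.405, limma adjusted p = 0.316) as deposited and -0.80 (limma adjusted p = 0.231) after median-ratio scaling, and with library number as a covariate it was 0.11. As deposited it was -0.094 without PAN rat 1 and -0.86 without PAN rat 4, and after median-ratio scaling -0.35 and -1.14, none of them called. The SD within groups was 0.65 on the log2 scale, larger than that of 95.5% of all genes. Ppara tracked the proximal tubule markers: its correlation with their score across 16 rats was r = 0.874 (Spearman's rho 0.876), 0.836 without the 2 rats farthest from the median score, and 0.887 after subtracting group means. The PAN rats with the lowest and the highest Ppara had summed tubule markers of 3433 and 12754 CPM, the lowest and the highest of that group.

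**Figure D2:**
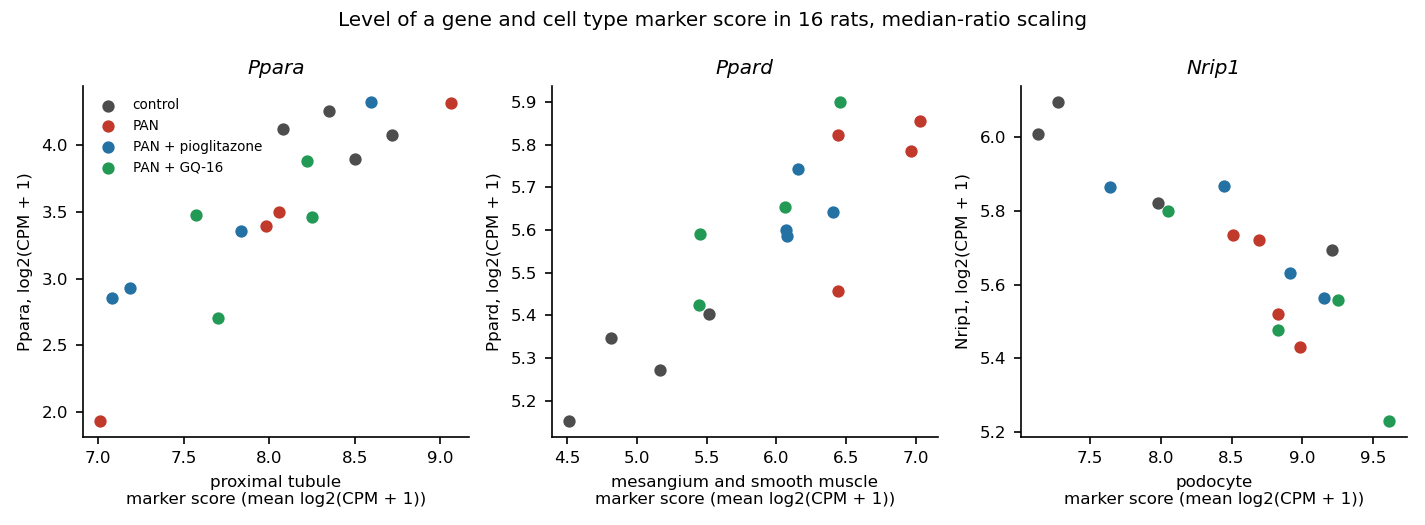
Level of Ppara, Ppard and Nrip1 (vertical axes, log2(CPM + 1)) against the mean log2(CPM + 1) of the proximal tubule, mesangium and smooth muscle, and podocyte markers (horizontal axes) in 16 rats, after median-ratio scaling and coloured by group. Ppara and Ppard are higher where the marker score is higher (r = 0.874 and 0.871) and Nrip1 is lower (r = -0.887).

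The correlation of Ppard with the mesangium and smooth muscle score was 0.871 across the 16 rats, 0.795 without the 2 farthest rats and 0.731 after subtracting group means. Its correlation with the podocyte score was lower, at 0.669. All rats of a correlation share the scaling of their library, and these values are descriptions.

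Rxra (ENSRNOG00000009446) and Rxrb (ENSRNOG00000000464) encode the retinoid X receptors that pair with every PPAR. As deposited Rxra was nearly level among control rats, at 72.5, 69.2, 72.6 and 72.9 CPM, and spread more widely in PAN rats, at 56.2, 71.4, 76.8 and 77.4 CPM. Pioglitazone-treated rats ranged from 62.6 to 79.9 CPM and GQ-16-treated rats from 56.5 to 69.9 CPM, the lowest group mean at 62.1 ± 6.08 CPM (SD, n = 4). As deposited 3 of 4 GQ-16 rats lay below every control rat. After median-ratio scaling the control rats, at 70.5 to 93.5 CPM, were as spread as the PAN rats, at 48.7 to 73.5 CPM (SD 11.4 and 11.1 CPM), so the difference in spread depended on the scaling. The log2 change of Rxra in PAN was -0.04 (95% interval -0.29 to 0.21, limma adjusted p = 0.815) as deposited and -0.34 (limma adjusted p = 0.157) after median-ratio scaling.

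Rxrb stood at 75.0, 52.3, 58.3 and 71.2 CPM in control rats and at 83.1, 73.3, 76.0 and 66.0 CPM in PAN rats. Rats given pioglitazone had 67.3 to 80.9 CPM and rats given GQ-16 had 68.2 to 82.1 CPM. With median-ratio scaling control rats were within 70.6 to 73.0 CPM, and the PAN rats within 62.7 to 72.1 CPM. The log2 change in PAN was 0.22 (limma adjusted p = 0.172) as deposited and -0.07 (limma adjusted p = 0.504) after median-ratio scaling, so its sign depended on the scaling. In the GRCr8 annotation Rxrb overlaps Slc39a7, Ppara overlaps Cdpf1 and Ncor1 overlaps Pigl. These neighbours are in the table, and whether counting used the strand is not given in the sources used here, so reads of overlapping exons may be split uncertainly.

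Ncoa1 (ENSRNOG00000004068) and Ncoa2 (ENSRNOG00000007975) are steroid receptor coactivators that bring histone acetyltransferases to ligand-bound receptors. As deposited Ncoa1 stood at 75.1, 54.3, 62.2 and 76.6 CPM in control rats and at 65.6, 65.6, 67.6 and 71.0 CPM in PAN rats, within the control range. The log2 change was 0.02 (95% interval -0.25 to 0.29, limma adjusted p = 0.905). The other scaling changed the picture: after it, control rats had 73.1, 73.4, 76.4 and 77.1 CPM and PAN rats 56.9, 60.6, 62.3 and 67.5 CPM. Every PAN rat was then below every control rat, and Ncoa1 fell by 0.28 on the log2 scale (SE 0.0624; adjusted p = 0.0138 by limma). With this scaling it also fell by 0.30 in the pioglitazone group (limma adjusted p = 0.0253) and by 0.32 in the GQ-16 group (limma adjusted p = 0.036), each against the same control rats. Its SD within groups after this scaling was 0.070, at percentile 1.97 among all genes.

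Some of the Ncoa1 calls against control, though not the size of the differences, changed with single rats. Leaving out 1 rat at a time under median-ratio scaling, the PAN call held in 6 of 8 fits and was lost without control rat 3 (adjusted p = 0.0502) or PAN rat 1 (adjusted p = 0.0507). It was also lost with library number as a covariate under that scaling (-0.25, limma adjusted p = 0.12). The pioglitazone call held in 3 of 8 fits, with adjusted p between 0.0248 and 0.0934, and the GQ-16 call in 2 of 8, with adjusted p between 0.0169 and 0.139. In these fits the log2 change stayed between -0.35 and -0.24.

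Ncoa2 stood at 41.3, 40.3, 40.0 and 47.2 CPM in control rats and at 29.7, 42.0, 46.7 and 44.5 CPM in PAN rats. With pioglitazone it ranged from 39.4 to 45.7 CPM, and with GQ-16 it was 22.2, 25, 42.2 and 35.2 CPM. As deposited GQ-16-treated rats 1 and 2 were below every other rat, while rat 3 was within the control range. The log2 change in PAN was -0.07 (limma adjusted p = 0.78) as deposited and -0.36 (95% interval -0.72 to -0.0056, limma adjusted p = 0.183) after median-ratio scaling. Against control, Ncoa2 in GQ-16-treated rats differed by -0.47 (95% interval -0.85 to -0.09, limma adjusted p = 0.148) as deposited and by -0.64 (limma adjusted p = 0.0639) after median-ratio scaling, and neither passed the test.

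Neither corepressor passed the test in PAN rats. Ncor1 (ENSRNOG00000055246), the scaffold that brings histone deacetylase to unliganded receptors, stood at 223, 178, 189 and 241 CPM in control rats and at 189, 213, 233 and 221 CPM in PAN rats, with a log2 change of 0.05 (limma adjusted p = 0.778). Nrip1 (ENSRNOG00000001585), a corepressor that binds ligand-activated receptors, stood at 52.2, 49.9, 51.6 and 55.2 CPM in control and at 48.6, 48.6, 56.2 and 54.9 CPM in PAN rats, with a log2 change of -0.01 (95% interval -0.22 to 0.21, limma adjusted p = 0.97). After median-ratio scaling the differences were -0.25 for Ncor1 (limma adjusted p = 0.125), with every PAN rat below every control rat, and -0.30 for Nrip1 (limma adjusted p = 0.146).

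As deposited, Nrip1 varied least of the 9 genes within groups, with an SD of 0.11 on the log2 scale against a median of 0.24 over all genes. This did not hold after median-ratio scaling, where its SD was 0.18 against a median of 0.19. Under that scaling its level ran opposite to the podocyte markers, with r = -0.887 across 16 rats, -0.812 without the 2 farthest rats and -0.847 after subtracting group means. Rxra did so less closely, with r = -0.789. Across the rats Rxra correlated with Ncor1 (r = 0.883) and with Nrip1 (r = 0.870).

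Cdk5 (ENSRNOG00000008017) stood at 21.8, 16.8, 19.3 and 23.3 CPM in control rats and at 32.7, 27.5, 30.6 and 28.2 CPM in PAN rats. All PAN rats were above all control rats, and as deposited Cdk5 rose by 0.54 on the log2 scale (95% interval 0.23 to 0.84, SE 0.142, limma adjusted p = 0.0188). The groups were still apart after median-ratio scaling, at 21.3 to 23.6 CPM and 25.4 to 28.3 CPM, but the log2 difference of 0.25 did not pass the test (limma adjusted p = 0.0617, SE 0.0771). Nor was it called with library number as a covariate (0.35, adjusted p = 0.275) or with the podocyte score as a covariate (0.32, adjusted p = 0.105). As deposited the call was also lost without control rat 2 (adjusted p = 0.0741), control rat 3 (0.0642) or PAN rat 1 (0.0653).

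The mean level of Cdk5 in both treated groups lay between those of the control and PAN rats. Pioglitazone-treated rats had 23.5, 26.2, 24.8 and 31.7 CPM and GQ-16-treated rats 27.6, 19.7, 27.1 and 30.2 CPM. The log2 difference from control was 0.37 (limma adjusted p = 0.121) with pioglitazone and 0.34 (limma adjusted p = 0.17) with GQ-16 as deposited. The same differences were 0.16 (limma adjusted p = 0.248) and 0.17 (limma adjusted p = 0.186) after median-ratio scaling.

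**Figure D3:**
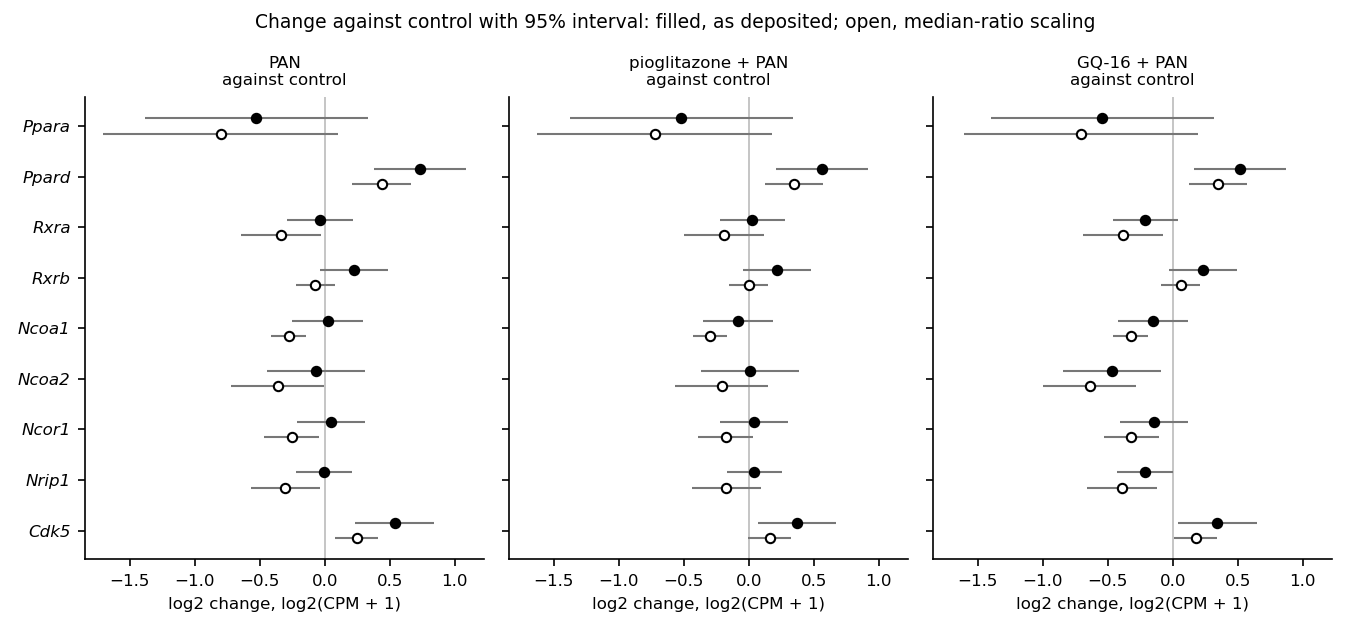
Log2 change (horizontal axis, log2(CPM + 1)) of each gene in PAN rats and in both treated groups against the same 4 control rats, with 95% intervals and 4 rats a group. Filled points are as deposited and open points after median-ratio scaling: Ppard and Cdk5 lie right of 0 under both, and the open points of Ncoa1 lie left of 0 in all 3 panels.

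The treated groups were also compared with control for the whole set. As deposited 0 of 9 genes passed limma's test with pioglitazone, beside 4.98% of all genes, and 0 of 9 with GQ-16, beside 0.151%. At an unadjusted p under 0.05 the counts were 2 of 9, beside 28.5% of all genes, and 4 of 9, beside 23.9%, as deposited, and 2 of 9, beside 20.7%, and 7 of 9, beside 24%, after median-ratio scaling. After median-ratio scaling 1 of 9 passed in each, Ncoa1 both times, beside 2.85% and 0.741% of all genes. Voom on the recovered reads with that scaling called 1 in each, beside 250 and 35 of all 13222 genes. The GQ-16 and control rats did not overlap for 6 of 9 genes after median-ratio scaling, 1 higher (Ppard) and 5 lower (Ppara, Rxra, Ncoa1, Ncoa2, Ncor1), beside 11.7% of all genes, 6.24% higher and 5.5% lower. As deposited they overlapped for all 9, beside 6.01% of all genes that did not. The pioglitazone and control rats did not overlap for 2 of 9 genes as deposited (Ppard and Cdk5, both higher), beside 14.1% of all genes, and for 3 of 9 after median-ratio scaling (the same genes and Ncoa1, which was lower), beside 11.8%.

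Across all 12 injected rats, whatever the gavage, Ppard ran from 41.9 to 58.7 CPM after median-ratio scaling, above the 34.6 to 41.3 CPM of control rats. Ncoa1 ran from 55.8 to 67.5 CPM, below the 73.1 to 77.1 CPM of control rats. These were 2 of 9 genes without overlap, beside 2.42% of all genes. For Cdk5 11 of 12 injected rats were above every control rat and for Ncor1 11 of 12 were below. The share of all genes with 11 of 12 on one side was not counted. As deposited no gene of the 9 separated all 12 from the control rats, beside 2.5% of all genes, and 10 of 12 were above control for Ppard.

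In the order of group means as deposited, every group overlapped its neighbour for all 9 genes. After median-ratio scaling the neighbours that did not overlap were pioglitazone and control for Ppard, control and PAN for Ncoa1, and pioglitazone and control for Cdk5. Whatever the order of means, pioglitazone and control rats did not overlap for 11.8% of all genes under that scaling, and PAN and control rats for 15.8%. PAN had the highest mean of Ppard and Cdk5 under both scalings, and control the highest mean of Ppara.

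Pioglitazone plus PAN was compared with PAN alone to ask whether the agonist moves the partners of its receptor. No gene of the 9 passed limma's test (0 of 9, beside 0% of all 13222 genes). At an unadjusted p under 0.05 there were 0 of 9, beside 3.74% of all genes. Voom on the recovered reads called 0 of 9, beside 0 of all genes. The log2 differences ran from -0.17 for Ppard (95% interval -0.52 to 0.18) to 0.07 for Ncoa2 (95% interval -0.30 to 0.45), with limma adjusted p between 0.916 and 0.996. For Ncor1 the difference was -0.01 with an interval of -0.27 to 0.26, and for Nrip1 it was 0.05 with an interval of -0.16 to 0.26. Ppara had the widest interval, -0.85 to 0.87. After median-ratio scaling the differences ran from -0.087 for Ppard to 0.15 for Ncoa2.

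GQ-16 plus PAN was compared in the same way, against the same PAN rats. Again 0 of 9 genes passed limma's test, beside 0.0151% of all genes, and voom called 0 of 9, beside 0 of all genes. At an unadjusted p under 0.05 there was 1 of 9, beside 8.27% of all genes: Ncoa2, with a log2 difference of -0.40 (95% interval -0.78 to -0.02, limma adjusted p = 0.58), and -0.28 (adjusted p = 0.822) after median-ratio scaling. Nrip1 differed by -0.21 (95% interval -0.42 to 0.003, limma adjusted p = 0.613), Ppard by -0.21 (interval -0.57 to 0.14) and Cdk5 by -0.19 (interval -0.50 to 0.11). The median of all genes was -0.11 as deposited, and after median-ratio scaling these 3 differences were smaller, at -0.085, -0.088 and -0.072. The difference of Rxrb was 0.01 (interval -0.25 to 0.27) as deposited and 0.13 (interval -0.014 to 0.28, unadjusted p = 0.073, limma adjusted p = 0.766) after median-ratio scaling.

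The 2 agonists were compared directly, as 1 pair for each of the 9 genes; doses are not given in the labels, so they may not be matched. None of the 9 passed limma's test (beside 0% of all genes), and voom called 0 of 9, beside 0 of all genes. At an unadjusted p under 0.05 as deposited there were 2 of 9, Ncoa2 and Nrip1, beside 5.94% of all genes. Ncoa2 was 31.2 ± 9.28 CPM with GQ-16 and 42.4 ± 2.64 CPM with pioglitazone (SD, n = 4), a log2 difference of -0.47 (95% interval -0.85 to -0.10, unadjusted p = 0.0169, limma adjusted p = 0.725). Nrip1 was 45.0 ± 4.78 CPM with GQ-16 and 53.9 ± 3.62 CPM with pioglitazone, a log2 difference of -0.26 (95% interval -0.47 to -0.05, unadjusted p = 0.0203, limma adjusted p = 0.73). As deposited the groups overlapped by 1 GQ-16 rat for each gene, rat 3, at 42.2 CPM for Ncoa2 and 50.5 CPM for Nrip1. After median-ratio scaling Ncoa2 differed by -0.43 (interval -0.79 to -0.075), and the Nrip1 difference of -0.22 had an interval that included 0 (-0.48 to 0.053), with rat 2 in place of rat 3 as the overlapping rat. Rxra differed by -0.24 (interval -0.49 to 0.01) as deposited and -0.19 (interval -0.50 to 0.11) after that scaling. As deposited the intervals of the other 6 genes all included 0, and the narrowest among them, for Rxrb, was -0.24 to 0.28.

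**Figure D4:**
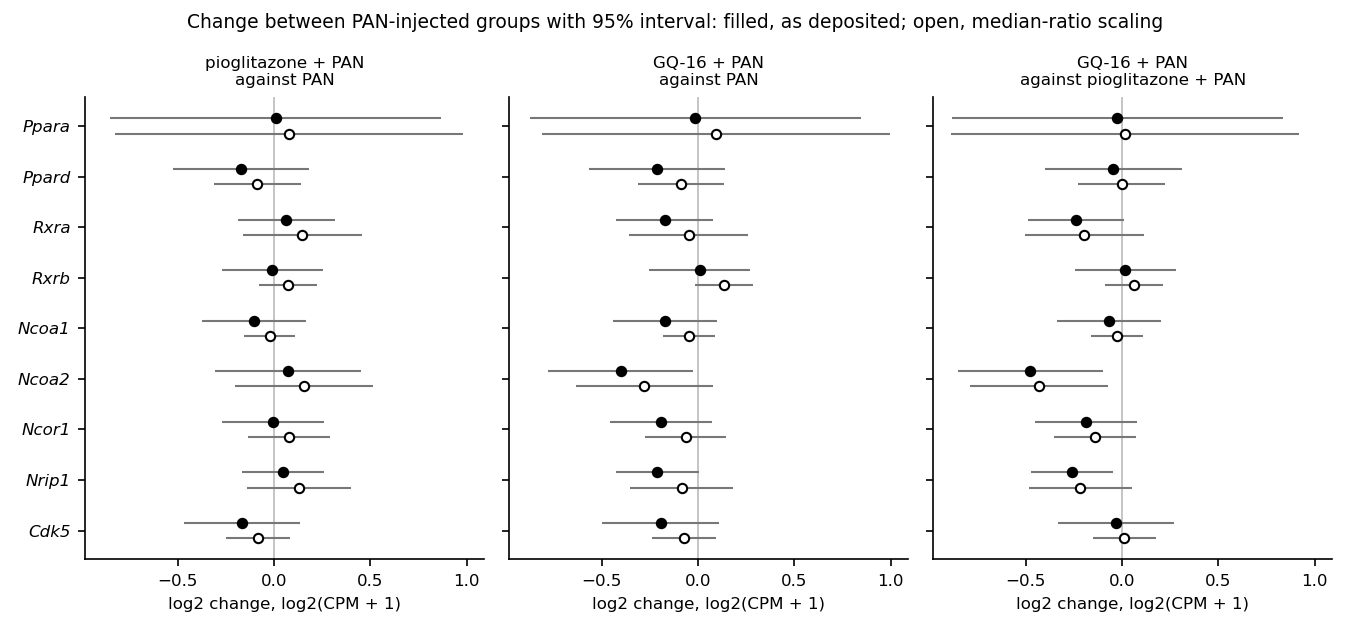
Log2 change (horizontal axis, log2(CPM + 1)) of each gene between the injected groups, with 95% intervals and 4 rats a group, filled as deposited and open after median-ratio scaling. As deposited the largest differences are those of Ncoa2 with GQ-16, -0.40 against PAN and -0.47 against pioglitazone, and no gene passed the test.

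Ratios of 2 genes in the same library, taken as differences of log2(CPM + 1), depend on library scaling only through the added 1, and they were examined without a test. The log2 ratio of Ppara to Ppard was -1.20 ± 0.219 in control rats (SD, n = 4), -2.46 ± 1.13 after PAN alone, -2.28 ± 0.617 under pioglitazone and -2.26 ± 0.647 under GQ-16. The added 1 matters most for the ratios that hold Ppara, the gene with the lowest levels. From the log2 values as deposited the PAN mean of Ppara to Ppard was -2.61. For Rxra to Ppara the PAN mean was 2.75, and 2.91 from the log2 values as deposited. Ppara to Ppard was below every control rat in 11 of 12 injected rats, the exception being the PAN rat with the highest Ppara. How many other genes show such a ratio to Ppard was not counted, so nothing particular to this pair is read from it. The ratio of Rxra to Rxrb was 0.17 ± 0.215 in control and -0.27 ± 0.159 with GQ-16, where all 4 rats, from -0.49 to -0.12, lay below all control rats, from -0.05 to 0.40. The ratio to Rxrb was lower without overlap in this way for 7.57% of all 13221 other genes. In PAN it was -0.09 ± 0.332 and with pioglitazone -0.015 ± 0.240, overlapping both.

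The balance between the coactivators, Ncoa1 to Ncoa2, was 0.65 ± 0.176 in control rats, 0.73 ± 0.263 after PAN alone, 0.56 ± 0.0633 under pioglitazone and 0.96 ± 0.245 under GQ-16. All 4 GQ-16 rats (0.69 to 1.28) were above all 4 pioglitazone rats (0.50 to 0.65), as were the ratios to Ncoa2 of 20.6% of all 13221 other genes. The ratio of corepressor to coactivator, Ncor1 to Ncoa1, was 1.62 ± 0.0595 in control rats, 1.65 ± 0.107 after PAN alone, 1.74 ± 0.135 under pioglitazone and 1.63 ± 0.0975 under GQ-16. Ncor1 to Nrip1 stayed between 1.81 and 2.26 in all rats. Rxra to Ppara was 2.26 ± 0.141 in control and above every control rat in 9 of 12 injected rats and below every control rat in 2. The share of other genes with such a ratio to Ppara was not counted.

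A pair of ratios to Ncoa1 was added after the values were seen. Ppard to Ncoa1 was -1.12 to -0.81 in control rats and -0.64 to -0.07 in the 12 injected rats. Cdk5 to Ncoa1 was -1.74 to -1.64 in control rats and -1.31 to -0.98 in the injected rats. Neither overlapped, but 20.3% of all 13221 other genes also had a higher ratio to Ncoa1 in every injected rat than in any control rat, so this is no feature of Ppard or Cdk5 alone.

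**Figure D5:**
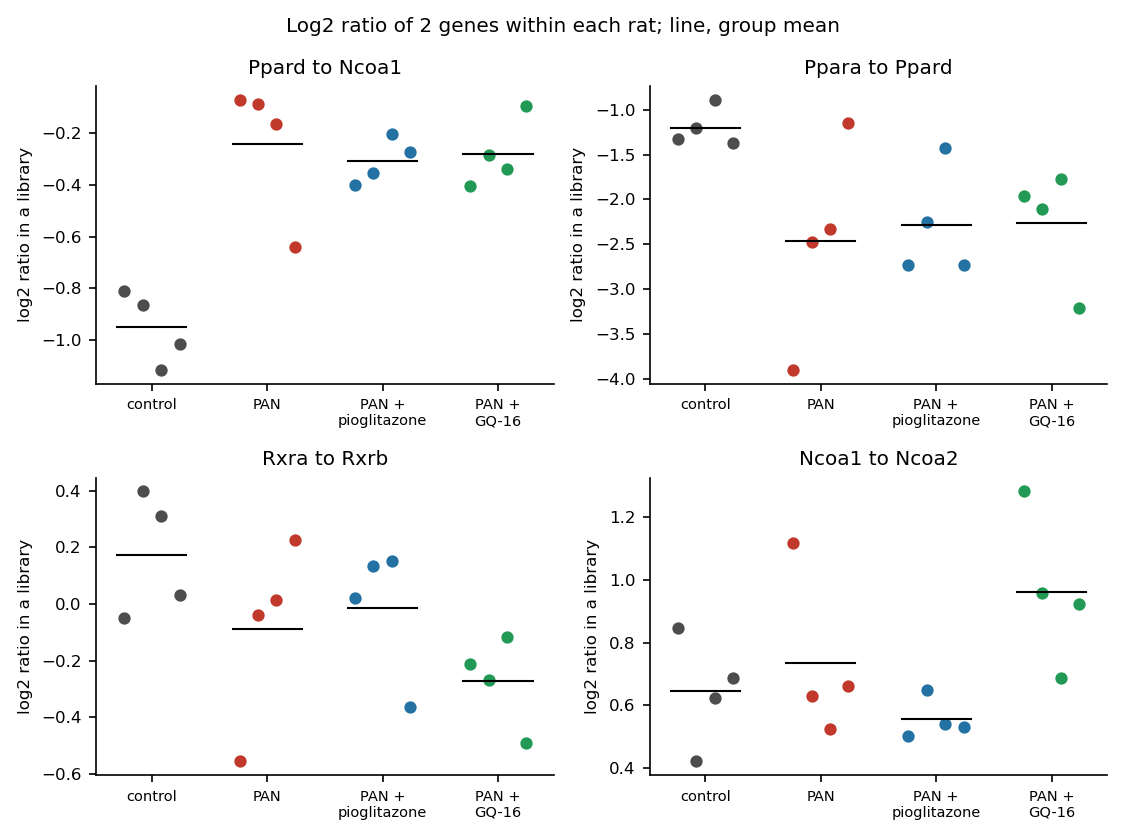
Log2 ratio of 2 genes in the same library (vertical axes) for the 4 rats of each group, with a line at the group mean. The ratio of Ppard to Ncoa1 separates the control rats from all 12 injected rats, Rxra to Rxrb has its lowest mean in GQ-16 rats and Ncoa1 to Ncoa2 its highest.

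The other genes of the pathway were taken from 5 lists with 107 distinct genes in the table. Of 18 listed RXR partners and lipid-sensing receptors, 2 rose in PAN against control as deposited and 0 fell, beside the 22.3% of all genes called: the orphan receptors Nr2f1 (1.14, SE 0.255, limma adjusted p = 0.00796) and Nr2f2 (0.66, adjusted p = 0.0403). Only Nr2f1 passed after median-ratio scaling (0.89, adjusted p = 0.0161), beside 8.63% of all genes. Control rats had 5.02 ± 2.50 CPM of Nr2f1 and PAN rats 11.6 ± 2.67 CPM (SD, n = 4). The list's median log2 change was 0.08 as deposited and -0.22 after median-ratio scaling, beside 0.28 and -0.003 for all genes.

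Of 24 coactivators and Mediator subunits, 5 rose and 1 fell as deposited, a share near the 22.3% of all genes. The largest rises were Smarcd3, a subunit of the SWI/SNF remodeller (0.84, limma adjusted p = 0.0122), and Prmt2, an arginine methyltransferase (0.60, adjusted p = 0.0201). Prdm16, a coregulator of brown fat genes, fell by 0.66 on the log2 scale (adjusted p = 0.0121). After median-ratio scaling Smarcd3 (0.56) and Prdm16 (-0.93, adjusted p = 0.0103) were the ones called, beside 8.63% of all genes. Control rats had 9.68 ± 1.30 CPM of Prdm16 and PAN rats 5.80 ± 1.06 CPM, and it was also lower in pioglitazone-treated rats (-0.63, limma adjusted p = 0.0342), a call that voom on the recovered reads did not make (adjusted p = 0.0508) and that was lost in 5 of 8 fits without 1 rat.

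Among 18 listed corepressors 2 rose as deposited, Trim24 at 0.56 and Sin3b at 0.51 (limma adjusted p = 0.0428 and 0.0303), and 0 passed after median-ratio scaling, where the smallest adjusted p was 0.0627. Of 15 listed Cdk5 partners and PPAR kinases 3 rose as deposited, Map2k1 (0.68, adjusted p = 0.0371), Cdk5rap3 (0.56, adjusted p = 0.0395) and Cdk5rap2 (0.53, adjusted p = 0.00652), and 0 passed after median-ratio scaling, with a smallest adjusted p of 0.103. Neither count as deposited was above the 22.3% of all genes. Those lists' medians were 0.29 and 0.25 as deposited, near the 0.28 of all genes.

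Of 33 listed PPAR target genes 6 rose and 0 fell as deposited, below the 22.3% of all genes called. Cpt1b, the muscle form of the carnitine palmitoyltransferase that admits fatty acids to mitochondria, rose by 2.28 on the log2 scale (SE 0.276; adjusted p = 0.000258 by limma), with means of 4.39 ± 1.16 CPM in control rats and 25.2 ± 5.32 CPM after PAN. Pdk4, a kinase that shuts off glucose oxidation, rose by 1.63 (adjusted p = 0.0168), with 4.93, 1.83, 1.36 and 3.71 CPM in control rats and 35.6, 6.20, 6.30 and 7.88 CPM in PAN rats. All PAN rats were above all control rats, with the first PAN rat far above the others, and without it the log2 change was 1.07 (limma adjusted p = 0.0262). The Pdk4 call was lost without control rat 2 or 3 (adjusted p = 0.0681 and 0.0691) and with voom (adjusted p = 0.0875). Cpt1b and Pdk4 both passed after median-ratio scaling (2.02 and 1.40), beside 8.63% of all genes, and the list's median was 0.07 as deposited and -0.22 after that scaling. In rats given pioglitazone Cpt1b was 12.1 ± 5.01 CPM and in rats given GQ-16 12.1 ± 4.96 CPM. None of the 107 list genes passed limma's test in either drug comparison with PAN or between the drugs under either scaling, nor with voom, and as deposited 3, 8 and 12 had an unadjusted p under 0.05 for pioglitazone against PAN, GQ-16 against PAN and GQ-16 against pioglitazone, beside 3.74%, 8.27% and 5.94% of all genes.

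Of the 12 list genes named here, 2 (Cpt1b and Prdm16) were still called in PAN against control with library number as a covariate. With that covariate 393 of all 13222 genes were called. In every fit without 1 rat as deposited 3 of the 12 were called (Cpt1b, Nr2f1 and Cdk5rap2).

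The genes most like each receptor or coregulator were found by Pearson correlation across the 16 rats after median-ratio scaling, as a description. Ppara was nearest to Fam83g (0.963), Slc4a4 (0.961), the basolateral bicarbonate cotransporter of the proximal tubule, and Snx29 (0.961). Ppard was nearest to Lrp5 (0.931), a Wnt coreceptor, Afap1l2 (0.930) and Rab6b (0.925). Rxra was nearest to Cmip (0.972), Tbc1d14 (0.967) and Gng12 (0.942), and Rxrb less close to any gene, with Rbm39 (0.862) first.

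Ncoa2 was nearest to Lcor (0.969), a ligand-dependent corepressor, followed by Wdfy3 (0.947) and the histone methyltransferase gene Kmt2c (0.946). Ncoa1 had Herc3 (0.869) first, which dropped to 0.513 after subtracting group means. Ncor1 was nearest to Ppp1r16b (0.931), Nrip1 to Lrp4 (0.921) and Cdk5 to Ttc16 (0.884). Afdn, an adherens junction protein, was among the 3 nearest genes of both Ncor1 (0.923) and Nrip1 (0.896).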

How the data were processed

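Per the file's own values, the authors deposited log2 CPM, with 0.5 added to each read count and 1 to each library total, for genes that reach 2 CPM in at least 8 libraries. The submitters' processing notes name HISAT2, featureCounts, Subread, limma and build Rnor_6.0, without roles or versions. Whole reads were recovered for 100% of the deposited log2 values within a tolerance of 0.01 read, and totals ran from 13351137 to 21977663 reads; any precision derived from those reads covers counting error only. The main fit, on log2(CPM + 1) in limma 3.58.1 (R 4.3.3), had 4 group means over 16 libraries, a variance trend, and Benjamini-Hochberg adjustment over 13222 genes, two-sided, called at an adjusted p under 0.05. The planned count test was replaced by this limma fit because the table holds log2 values. Median-ratio scaling, quantile normalization, voom on the recovered reads, a pseudocount of 0.1, the log2 values as deposited, a mean of at least 10 CPM, fits to 2 groups, covariates (library number of 25 or higher, podocyte score, proximal tubule score) and leaving out each rat were alternatives; median-ratio scaling combined with library number or with leaving out rats was added after seeing the data. The fit was tested on simulated data. Genes named are all 9 members, the 3 nearest symbols of each (some members shown with fewer), and the called list genes with the largest changes in PAN against control, with the other called genes of the shorter lists. The members and lists were chosen with earlier results of these data known. One gene of the corepressor list is not reported here and was left out of that list's counts. Scores are means of log2(CPM + 1) over a marker list. Promoters and overlaps come from RefSeq GRCr8, in which all 9 symbols were found; the files' build differs, so no position of the counted reads is given.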

Additional observations from a re-analysis of the deposited data

Results flagged for a closer look

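In 68 groups of 4 values (each gene and each ratio in each group), a single rat lying far from the other 3 was looked for with Dixon's test at the 95% level, which chance alone would mark in about 3.4. It marked 3. Ppard in the fourth PAN rat was the lowest of its group, at 5.53 on the log2(CPM + 1) scale (45.2 CPM), with the other PAN rats between 5.94 and 5.99. The ratio of Ppard to Ncoa1 was also lowest in that rat, at -0.64 on the log2 scale, with the other PAN rats between -0.16 and -0.069. Rxra in the second control rat was the lowest of its group, at 6.13 (69.2 CPM), with the other control rats between 6.20 and 6.21. This turned with the scaling: after median-ratio scaling the same rat was the highest control rat, at 93.5 CPM, with the others between 70.5 and 89.1 CPM.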

How the results depend on the processing

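No paired analysis was possible because the labels give no replicate numbers and no pairing between groups. In PAN against control 2 of the 9 genes passed the test as deposited, beside 2943 of all 13222 genes. With library number as a covariate 0 passed under either scaling, beside 393 of all genes as deposited and 381 after median-ratio scaling. With the podocyte score as a covariate 1 passed, beside 912 of all genes. Leaving out 1 rat as deposited gave 1 to 2, beside 838 to 4964 of all genes. After median-ratio scaling it gave 0 to 2, beside 511 to 1751 of all genes. Library number and group overlap in part: 0 control libraries have a high number. In pioglitazone plus PAN against control the count of 0 became 1 under median-ratio scaling, quantile normalization, voom and library number with median-ratio scaling. Those 4 settings called 377, 384, 250 and 397 of all genes, beside 659 as deposited. Leaving out 1 rat gave 0 to 1, beside 32 to 1660 of all genes. In GQ-16 plus PAN against control it likewise became 1 under those 4 settings, and 0 to 3 when 1 rat was left out, with 3 (Ncoa1, Ncoa2 and Nrip1) only under median-ratio scaling without control rat 1; as deposited, the omission of the same rat made Ppard pass in both treated groups (adjusted p = 0.0245 and 0.0335). The counts in the 3 comparisons among injected groups were 0 under every setting run.

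Signs of small differences in PAN against control turned with the setting; apart from the scalings, which remove the upward shift of all genes, the cause was not tested. Ncoa1 was -0.28 under median-ratio scaling, -0.27 under quantile normalization, -0.28 under voom, -0.041 with library number, -0.17 with the podocyte score and -0.25 with library number under median-ratio scaling. Ncor1 was -0.25, -0.27 and -0.25 under the 3 scalings, -0.043 with the podocyte score and -0.14 with library number under median-ratio scaling. Rxrb was -0.074, -0.053 and -0.077 under the 3 scalings and -0.12 with library number under median-ratio scaling. With library number Ppara was 0.11, Rxra 0.11 and Nrip1 0.098, and Nrip1 was 0.024 with the podocyte score. Nrip1 in pioglitazone plus PAN against PAN was -0.020 with library number. In PAN against control, leaving out 1 rat as deposited gave -0.074 to 0.089 for Ncoa1, -0.14 to 0.074 for Ncoa2 and -0.023 to 0.12 for Ncor1. It gave -0.042 to 0.026 for Nrip1 and -0.086 to 0.065 for Rxra. Under median-ratio scaling these genes stayed negative in every such fit, in that order at -0.32 to -0.24, -0.44 to -0.20, -0.30 to -0.17, -0.37 to -0.24 and -0.40 to -0.21. Rxrb kept its sign within each scaling, at 0.13 to 0.30 as deposited and -0.10 to -0.036 after median-ratio scaling. Over both scalings together, leaving out 1 rat gave -0.067 to 0.23 for Ncoa2 in pioglitazone plus PAN against PAN. For Nrip1 in GQ-16 plus PAN against PAN it gave -0.27 to -0.15 as deposited and -0.18 to 0.0099 after median-ratio scaling. The widest turns were those of Ppara. Over both scalings together they ran from -0.43 to 0.42 in pioglitazone plus PAN against PAN and from -0.45 to 0.44 in GQ-16 plus PAN against PAN. In GQ-16 plus PAN against pioglitazone plus PAN they ran from -0.23 to 0.34. Other differences among the injected groups that lay near 0 also turned sign. Of the values tabulated under the alternatives, 473 single-gene values kept their direction and side of the threshold, 56 changed sign, 23 lost their call and 15 gained one. Among counts of calls and ratio means 161 stayed within their limits and 25 moved. Precision is limited by 4 rats a group and, for Ppara, by as few as 61 reads in a library; counting error and the spread between rats were not separated.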
